A study of Mus musculus with 4 samples.

Results

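The pre-B receptor and the signalling proteins that sit next to it at the B-cell surface are encoded by a small group of genes, of which 9 were examined here: Vpreb1, Igll1, Vpreb3, Cd79a, Cd79b, Syk, Blk, Blnk and Cd22. They were chosen by name, with earlier results of these data known, and stand beside 21900 protein-coding genes in the gene table, of which 14970 could be placed on the genome build of the data. A locus was the gene body with 20 kb to either side, and every called peak that overlapped it was taken. All 9 members were found, and their loci held 55 of 77749 PHF6 peaks, 41 of 32388 H3K27ac peaks and 5 of 5616 H3K27me3 peaks.

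The study mapped chromatin in mouse pre-B acute lymphoblastic leukemia cells by chromatin immunoprecipitation and sequencing, in which antibodies pull down crosslinked chromatin and the DNA that comes with it is sequenced. All libraries came from 1 kind of cell: C57BL/6J pre-B leukemia cells that overexpress BCR-ABL1, the fusion tyrosine kinase of the Philadelphia chromosome, and are p19 null, grown in culture without any other agent named in the labels. PHF6, a zinc-finger protein of chromatin that is mutated in some leukemias, was profiled with acetylation of histone H3 at lysine 27 (H3K27ac, a mark of active promoters and enhancers) and trimethylation of the same lysine (H3K27me3, a mark laid down by Polycomb). Each of the 3 antibodies had 1 library, so no value below has a replicate error and no test between groups was possible. The labels do not say how many transformed clones or mice the culture came from, and the input library was not analysed here.

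In a pre-B cell the immunoglobulin heavy chain is displayed before any light chain exists. Its partner is the surrogate light chain, built from VpreB and lambda5 (the products of Vpreb1 and Igll1), and the complex signals through the Igα and Igβ subunits encoded by Cd79a and Cd79b. Phosphorylated tyrosines in their tails recruit the kinase Syk, Src-family kinases such as Blk phosphorylate them, and the adaptor Blnk connects Syk to downstream enzymes. Cd22 is a sialic-acid-binding co-receptor that dampens the signal. The pre-B receptor is the checkpoint at which pre-B cells with a working heavy chain divide and then move on.

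All 7 members with an annotated start in the promoter table had an H3K27ac peak within 1 kb of it, as did 66.2% of 12635 protein-coding genes. In 4 of the 7, Cd79a, Vpreb1, Igll1 and Blnk, that peak was 5 kb or wider, which was so at 2.44% of genes. Vpreb1 and Igll1 shared 1 such peak, and the 5 kb width was chosen after seeing the data. A PHF6 peak lay within 1 kb of the start in 2 of the 7, Vpreb1 and Syk, against 71.5% of all genes and 91% of the 8369 genes whose start was acetylated. Both lay at 2 of the 7, against 60.3%. An H3K27ac summit of height 200 or more lay within 1 kb of 1 start, that of Syk, against 39.9% of genes, and 95.8% of the genes with such a summit had PHF6 there, as Syk did. H3K27me3 lay near 1 of the 7 starts, that of Vpreb3, against 3.78% of all genes. Syk missed the criterion by which all other genes counted here were placed. Without Syk, H3K27ac lay at 6 of 6 starts, PHF6 at 1 of 6 and a summit of 200 or more at 0 of 6.

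Cd79b and Blk have no start in that table and are described by both ends of the gene body. Counted at either end, which takes in gene ends as well as starts, all 9 members had H3K27ac (65.8% of genes), 7 had PHF6 (73.6%), 7 had both (61.1%), 5 had an H3K27ac peak of 5 kb or wider (3.04%) and 3 had H3K27me3 (10%). A summit of height 200 or more lay at an end of 2 members, Cd79b and Syk (36% of genes). The low count of PHF6 was thus seen at annotated starts and not over both gene ends. Over whole loci, all 9 members had an H3K27ac peak (81.3% of genes) and 6 had one with a summit of 200 or more (56.6%). A peak's height, as used here, is the number of reads the authors' caller counted at its summit, the tallest point. Whether a low peak means few cells with the mark or little of it in each cell cannot be told apart.

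The promoters of Vpreb1, Igll1, Cd79a and Blnk are shown because the widest acetylated peaks lie over them, and that of Cd22 because it alone holds the full EBF palindrome. Each is the 250 bases before the annotated start, from RefSeq on GRCm38.p6, written 5′ to 3′ on the gene's own strand, with capitals where a searched motif matched on either strand. Promoters of 7 of the 9 members were found, 8 in all because Syk has 2 starts. The Cd79a promoter is on the plus strand, and those of Vpreb1, Igll1, Blnk and Cd22 are on the minus strand.
Vpreb1: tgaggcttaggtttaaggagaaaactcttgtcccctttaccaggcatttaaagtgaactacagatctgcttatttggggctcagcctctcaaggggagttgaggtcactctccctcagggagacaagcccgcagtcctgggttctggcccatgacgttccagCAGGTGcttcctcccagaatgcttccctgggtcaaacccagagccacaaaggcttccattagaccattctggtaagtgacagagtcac
Igll1: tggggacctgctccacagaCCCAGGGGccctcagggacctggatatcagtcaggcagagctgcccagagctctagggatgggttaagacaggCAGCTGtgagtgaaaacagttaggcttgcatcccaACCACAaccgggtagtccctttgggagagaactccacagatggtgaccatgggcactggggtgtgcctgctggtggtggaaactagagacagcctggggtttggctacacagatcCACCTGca
Cd79a: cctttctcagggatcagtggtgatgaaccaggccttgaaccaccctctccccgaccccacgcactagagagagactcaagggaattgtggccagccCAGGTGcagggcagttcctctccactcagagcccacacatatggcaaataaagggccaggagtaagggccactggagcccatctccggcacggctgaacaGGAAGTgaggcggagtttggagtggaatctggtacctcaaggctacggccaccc
Blnk: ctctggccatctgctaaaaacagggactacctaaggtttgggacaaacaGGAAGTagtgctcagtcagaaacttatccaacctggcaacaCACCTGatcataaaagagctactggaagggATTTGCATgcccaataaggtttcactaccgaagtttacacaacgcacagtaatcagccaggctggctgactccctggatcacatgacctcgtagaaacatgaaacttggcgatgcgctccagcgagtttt
Cd22: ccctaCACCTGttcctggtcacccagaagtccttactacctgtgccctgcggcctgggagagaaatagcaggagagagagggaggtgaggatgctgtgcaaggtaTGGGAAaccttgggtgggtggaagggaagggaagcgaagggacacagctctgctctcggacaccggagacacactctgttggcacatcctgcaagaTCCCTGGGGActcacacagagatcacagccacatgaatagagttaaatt

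The E-box CAGGTG, the core bound by E2A-type factors, was in 7 of the 8 member promoters, all but that of Vpreb3, and in 16.9% of 21263 mouse promoters of the same length. In Vpreb1 it lay 88 to 83 bases before the start and in Igll1, on the other strand, 8 to 3 bases before it. The second E-box CAGCTG was in 1 of 8 (Igll1) against 12.1%. The core CCCNNGGG, part of the palindrome recognised by EBF, was in 2 (Cd22 and Igll1) against 13.5%. The full palindrome, the same core with T before it and A after it, was in 1 of 8, the Cd22 promoter, against 0.832%, and each such match is also one of the core. The octamer ATGCAAAT, known from immunoglobulin promoters, was in 2 of 8 (Vpreb3 and Blnk) against 1.58%. The ETS core GGAAGT was in 3 against 20.4%, the RUNX core TGTGGT in 2 against 12.4%, the Ikaros core TGGGAA in 1 against 20.9% and TATAAA in none against 11.6%. These are matches of letters and not measured binding sites.

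The members' promoters held few CpG dinucleotides. In the 300 bases that also take in 50 after the start, Vpreb1 and Igll1 had 2 CpG each, Vpreb3 had 3, Cd22 4, Blnk 7 and Cd79a 8, where the median promoter had 13 (quartiles 4 and 24). Syk differed between its starts, with 31 CpG at the first and 2 at the second.

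Vpreb1 and Igll1, the genes of the surrogate light chain, lie 4.416 kb apart on chromosome 16 and shared their peaks. One H3K27ac peak, chr16:16859068-16872503 in mm9, covered the starts of both. It was 13436 bp wide, rank 21 by width of the 32388 H3K27ac peaks, and its summit height was 329. The summit was not at either member: it lay 300 bp from the start of Top3b, the topoisomerase gene next to them, 1.78 kb from the Vpreb1 start and 7.05 kb from the Igll1 start. A second H3K27ac peak of height 68 lay beyond the far end of Igll1. PHF6 had 3 peaks here, of heights 23, 27 and 37. The peak of height 27 (chr16:16868381-16869667) covered the Vpreb1 start, the one of height 37 lay at the acetylation summit, and no PHF6 peak was nearer to the Igll1 start than 4.33 kb. No H3K27me3 peak was called in the locus, and the nearest to the Vpreb1 start was 49.1 kb away.

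Vpreb3, a VpreB-like gene whose product is known to bind newly made immunoglobulin chains inside the cell, had 4 H3K27ac peaks of heights 230, 330, 39 and 303. The annotated start lies 5.276 kb from the low end of the gene body (6.633 kb, plus strand). The H3K27ac peak over that start, chr10:75410054-75414740, was 4687 bp wide with its summit (303) 2.99 kb past the start. A PHF6 peak of height 41 lay in its far part, with the summit 3.05 kb from the start and the edge 1.64 kb from it. The summit of height 230 stood 43 bp from the start of Mmp11, and that of height 330 stood 3011 bp from the nearest annotated start, that of Chchd10, in a 5997 bp peak that also covered the start of Gm867. Between the Vpreb3 start and the acetylation summit lay an H3K27me3 peak of height 18 and width 636 bp, so all 3 antibodies had a peak within this one acetylated stretch.

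**Figure D1:**
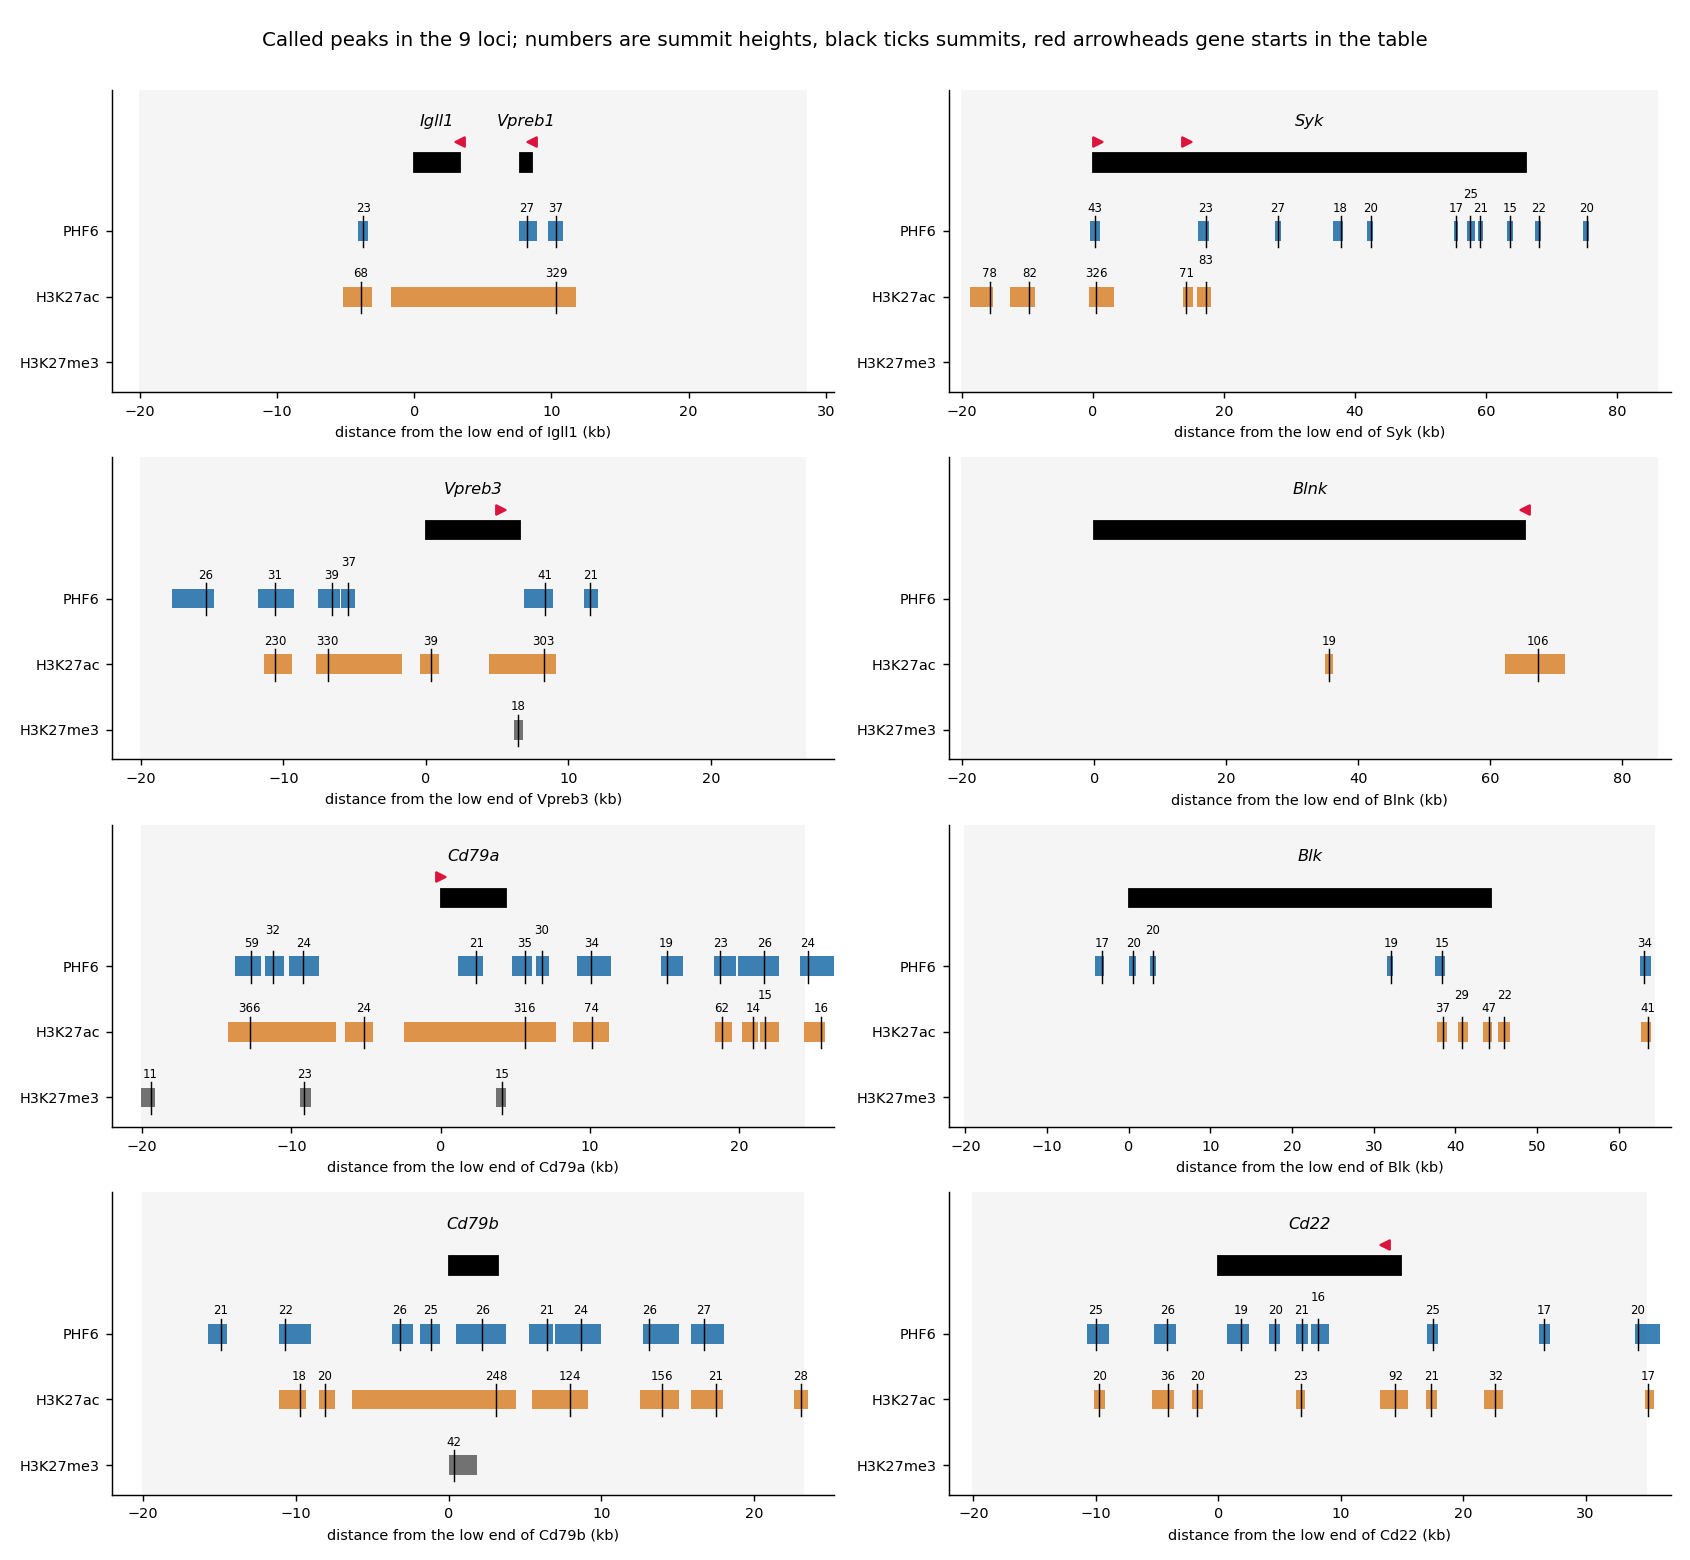
Called peaks of PHF6 (blue), H3K27ac (orange) and H3K27me3 (grey) in the 9 loci, drawn to scale against distance in kb from the low end of each gene body (black bar), with the summit height above each peak, black ticks at summits, red arrowheads at annotated starts and the 20 kb flanks shaded. The widest acetylated peaks, over Igll1 and Vpreb1, Cd79b, Cd79a and the Blnk start, are 13436, 10711, 10229 and 9119 bp long, and the Blnk panel has no PHF6 peak.

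Cd79a, which encodes Igα, had the most heavily acetylated locus of the 9. H3K27ac covered 569.7 bp per kb of it, more than in 99.58% of protein-coding genes. The peak over the Cd79a start, chr7:25680057-25690285, was 10229 bp wide (rank 71), but its summit of height 316 lay 5.639 kb past that start and 150 bp from the start of the next gene, Arhgef1. The tallest summit of the locus, 366, stood 32 bp from the start of Rps19, a ribosomal protein gene on the other side, in a peak of 7283 bp (rank 223). Within the peak over Cd79a, PHF6 had 3 peaks of heights 21, 35 and 30, the first 1.19 kb downstream of the Cd79a start and the others at Arhgef1. The tallest PHF6 peak of any member locus, 59, was also at Rps19. H3K27me3 peaks of heights 11, 23 and 15 were called in the locus, with none nearer to the Cd79a start than 3.72 kb.

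Cd79b, which encodes Igβ, lay wholly inside an H3K27ac peak, chr11:106166256-106176966, of 10711 bp (rank 54). Its summit of height 248 was 0.109 kb from the high-coordinate end of the gene body and 34937 bp from the nearest start in the promoter table. Further H3K27ac peaks of heights 124 and 156 followed on that side. The 9 PHF6 peaks of the locus were even and low, from 21 to 27, and the widest of them (3304 bp, height 26) covered that same end of the gene. The H3K27me3 peak chr11:106172581-106174389, of height 42, lay over the opposite part of the gene, with its summit 0.38 kb from the low end. It was the tallest H3K27me3 summit in the 9 loci, taller than the tallest of 97.64% of protein-coding gene loci. Loci without such a peak counted there as 0, and only 27.4% of loci held one. Within the H3K27me3 list, 92.74% of summits were lower. Cd79b thus had peaks of all 3 antibodies over a gene body of 3.222 kb.

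Syk, the tyrosine kinase recruited to Igα and Igβ, was the member with a tall summit of both PHF6 and H3K27ac at its own start. The H3K27ac peak chr13:52677517-52681343 had height 326, with its summit 0.311 kb from the first start, and the PHF6 peak there had height 43, with its summit 0.546 kb from it. The second start, further downstream, had a smaller H3K27ac peak (height 71, summit 3 bp away), and PHF6 at height 23 lay 1.82 kb from it. The other 9 PHF6 peaks of the Syk locus, heights 15 to 27, were spread through the gene body and past its end with no H3K27ac peak at any of them. Syk was placed from 10 matching summits against 7 at the next best position, short of the criterion used for other genes. Without Syk, 1 of 6 members had PHF6 at the start. With 5 Mb to either side in place of 2 Mb, Syk was placed so that its starts were at least 2.24 kb from any H3K27ac peak and 2.48 kb from any PHF6 peak, which ends both calls and leaves H3K27ac at 6 of 7 members and PHF6 at 1.

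Blk, a Src-family kinase of the B lineage, had the weakest acetylation. Its tallest H3K27ac summit was 47 (chr14:64035175-64036373), 0.226 kb from the high end of the gene body, in a row of 4 peaks of heights 37, 29, 47 and 22 around that end. The loci of 31.01% of protein-coding genes had a lower tallest summit. PHF6 had 6 peaks of heights 15 to 34, of which the one of height 20 was 0.064 kb from the low end, where no H3K27ac peak lay within 37.8 kb. Blk was placed from 5 matching summits, the fewest the criterion allows, against 3 at the next best position. It got no placement with 1 Mb to either side, matches within 0.3 kb, summits of 250 or more, or tall PHF6 summits. The distances to its ends rest on that placement.

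Blnk, the adaptor that links Syk to phospholipase C, was acetylated without PHF6. A single H3K27ac peak of 9119 bp (chr19:41065470-41074588, rank 102) covered the start, with a modest summit of 106 lying 1.87 kb upstream, and a second of height 19 lay in the gene body. No PHF6 peak was called anywhere in the locus, whereas 89.9% of protein-coding genes had at least 1. The nearest PHF6 peak was 58.8 kb from the start, farther than at all but 70 of the 8369 genes with an acetylated start (0.836%). No H3K27me3 peak lay within 212 kb of the start.

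Cd22, the inhibitory co-receptor, had 8 H3K27ac peaks. Only the one at its start, chr7:31663451-31665790, was above height 36: it had height 92, width 2340 bp and its summit 0.835 kb upstream. PHF6 had 9 peaks of heights 16 to 26, and the nearest to the start was 3.46 kb away at height 25. No H3K27me3 peak was called in the locus.

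Ranked among all placed protein-coding genes, the loci stood higher for the extent of acetylation than for its height. The median member locus had 299.4 bp of H3K27ac peaks per kb (range 74.59 to 569.7), against 49.85 for all genes (quartiles 15.19 and 118.3). Its median tallest H3K27ac summit was 326 against 244, and for PHF6 the tallest summit was 37 against 34. The order of the members by acetylated bases per kb was Cd79a, Cd79b, Vpreb1, Igll1, Vpreb3, Cd22, Syk, Blnk and Blk. The values of Vpreb1 and Igll1, 380.5 and 358.9, came from the same peaks. With 1 library, neighbours in this order cannot be separated. Because the flanks are fixed, bases per kb also depend on body length, from 0.855 kb at Vpreb1 to 66.18 kb at Syk. By covered kb the order was Cd79a (25.27), Cd79b (22.39), Vpreb1 and Igll1 (15.55), Syk (14.87), Vpreb3 (13.96), Blnk (10.2), Cd22 (9.295) and Blk (6.292). The part of body length in the contrast with all genes was not tested. Heights were compressed at the top, with 3.02% of H3K27ac summits at 350 or more and 0.0957% at 380 or more, so they separate the tallest peaks poorly.

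**Figure D2:**
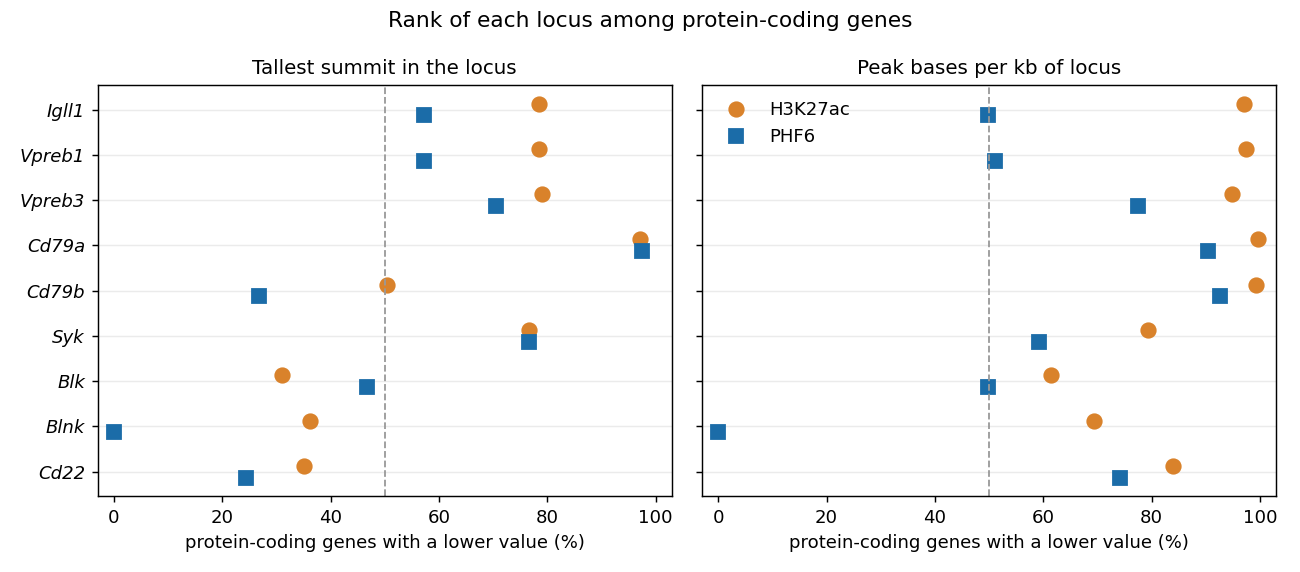
For each member locus, the percent of 14970 protein-coding genes with a lower tallest summit (left) and with fewer peak bases per kb of locus (right), for H3K27ac (orange circles) and PHF6 (blue squares), with a dashed line at the midpoint. For peak bases the H3K27ac values of Cd79a, Cd79b, Vpreb1, Igll1 and Vpreb3 lie between 94.82% and 99.58%, while Blnk is at 0 for PHF6.

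Joining H3K27ac peaks that lay within 12.5 kb of each other gave 17585 regions, ranked by the peak bases they hold. The region over Cd79a ranked 63, with 15 peaks and 38.14 kb of them, and took in its neighbours. Cd79b ranked 204, Syk 341, Vpreb3 436, Vpreb1 with Igll1 454, Cd22 482, Blnk 1105 and Blk 2394. Of the 41 H3K27ac peaks in the loci 6 were 5 kb or wider, against 793 (2.45%) of the whole list.

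**Figure D3:**
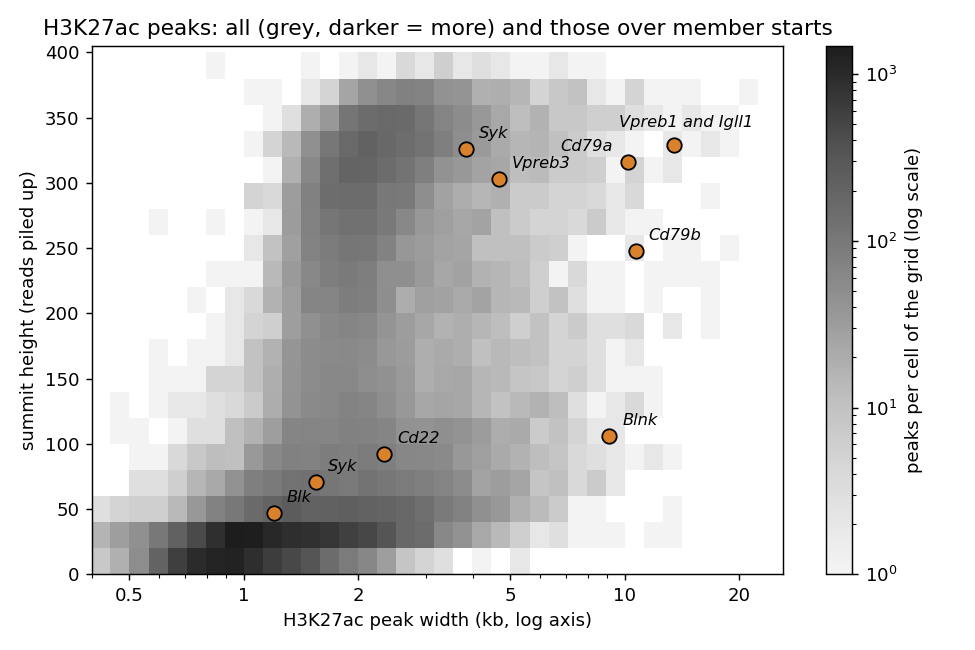
Summit height against width (log axis, kb) of all H3K27ac peaks, counted in a grid (grey, darker for more peaks, log scale), with the peaks over the members' starts, or over the high end of the gene body for Cd79b and Blk, as orange points; Syk has a point for each start. The peak shared by Vpreb1 and Igll1 and those of Cd79a, Cd79b and Blnk lie to the right at 9119 bp or more, and Blnk does so at a height of 106.

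The wide peaks were covered by PHF6 unevenly. Those over Vpreb1 and Igll1, Cd79a and Cd79b held 2, 3 and 3 PHF6 peaks, the flanking peak beside Rps19 held 3 and the one beside Vpreb3 held 2. The wide peak at Blnk held none, as did 124 of the 793 wide peaks of the list, of which 84.36% held PHF6 (95% exact Clopper-Pearson interval 81.65 to 86.82, counting error only). In all, 26 of 41 H3K27ac peaks in the loci overlapped a PHF6 peak, or 63.41% (46.94 to 77.88), against 71.67% of the list, a difference within the interval. All 8 with a height of 200 or more did so (the list stood at 95.53%), and 6 of 11 with heights from 50 to under 200 did (62.96%).

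Where PHF6 and H3K27ac peaks overlapped in the loci, their summits lay farther apart by the median than over the list. From the PHF6 side, 34 of 55 peaks, or 61.82% (47.73 to 74.59), overlapped H3K27ac, against 30.26% of the list. The median distance from these 34 summits to the nearest H3K27ac summit was 391 bp, against 108 bp over the list, and 52.94% were within 0.5 kb against 80.93%. Each H3K27ac peak has 1 summit, and the wide peaks other than that at Blnk held 2 or 3 PHF6 peaks. These loci also had more H3K27ac bases per kb (median 299.4, against 49.85 for all genes). The part of peak width and coverage in these contrasts was not tested. Of the 8 H3K27ac summits of height 200 or more in the loci, 4 stood at the starts of the neighbours Rps19, Mmp11, Arhgef1 and Top3b, 1 at the Syk start and 1 at the high end of Cd79b. Genes were placed on mm9 by matching such tall summits to annotated starts, so that they stand at starts is partly built in. The remaining 2, in the Vpreb3 locus, were 2988 and 3011 bp from the nearest start.

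At the members' own starts PHF6 was less frequent than at acetylated starts in general, as a count of few genes. The nearest PHF6 peak overlapped the start at Vpreb1 and Syk and was 1.19 kb away at Cd79a, 1.64 kb at Vpreb3, 3.46 kb at Cd22, 4.33 kb at Igll1 and 58.8 kb at Blnk. Of acetylated genes, 88.1% had PHF6 across the start and 91.8% within 2 kb, where 4 of the 7 members had it. At 5 of the 7 members, Cd79a, Vpreb1, Vpreb3, Igll1 and Blnk, the acetylated peak reached the start but had no summit within 1 kb of it, which was so at 3.38% of genes. Among the 427 genes of that kind, 84.5% had PHF6 within 1 kb of the start, and among the 308 with a peak of 5 kb or wider, 94.8%. PHF6 at acetylated starts also varied with CpG content: it was at 71.1% of 311 acetylated starts with 0 to 4 CpG, 79.2% of those with 5 to 9, 85.3% with 10 to 19 and 96.4% with 20 or more. The part of CpG content in the members' count was not tested.

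**Figure D4:**
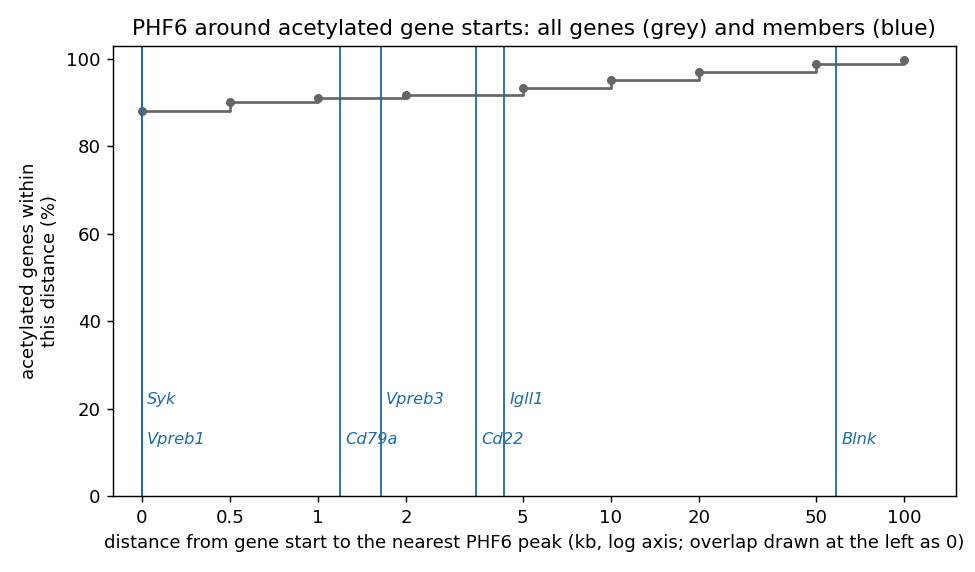
Percent of the 8369 genes with an acetylated start that have a PHF6 peak within a given distance of it (grey steps; log axis in kb, with overlap drawn at the left as 0), and the distance at each of the 7 members with an annotated start (blue lines). Vpreb1 and Syk are at 0, Cd79a, Vpreb3, Cd22 and Igll1 between 1.19 and 4.33 kb, and Blnk at 58.8 kb.

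H3K27me3 was called in 3 of the 9 loci, those of Cd79a, Cd79b and Vpreb3, while 27.4% of protein-coding genes had such a peak. Of the 5 peaks, 4 lay inside H3K27ac peaks, against 21.0% of the whole H3K27me3 list. These loci had 569.7, 517.9 and 299.4 bp of H3K27ac peaks per kb, in that order, against a median of 49.85 for all genes. The part of this coverage in the contrast was not tested. The heights of the 5 H3K27me3 peaks were 11 to 42, with a median of 18 against 16 for the list. Only the peak at Cd79b had a score of at least 100 (728.49).

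The other genes of the B-cell receptor pathway were read from a list of 40, of which 30 met the placement criterion and 26 of these had an annotated start. H3K27ac lay at 24 of the 26 starts (66.2% of all genes), PHF6 at 19 (71.5%), a share near that of all genes, and H3K27me3 at 1 (3.78%), that of the phosphatase gene Ptpn6. The tallest H3K27ac summits at these starts were 345 at Cbl, a ubiquitin ligase, 344 at Bcl10, a scaffold of NF-κB signalling, 340 at Plcg2, the phospholipase downstream of Blnk, 338 at the PI3-kinase subunit gene Pik3r1 and 331 at the adaptor gene Nck1. PHF6 was present at all 5, with heights of 34 to 53. PHF6 and H3K27ac together lay at 19 of the 26 starts (60.3% of all genes), and 91% of all 8369 acetylated starts had PHF6. Acetylated starts without PHF6 were Ptprc, Fcrla, Fcgr2b, Bank1 and Cd180, named after their values were seen. At Cd180, a Toll-like surface receptor of B cells, the acetylated peak was 8095 bp wide with a height of 71.

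An H3K27ac peak of 5 kb or wider lay at 5 of the 26 starts (2.44% of all genes). They were Pik3cd (11730 bp), Vpreb2 (9623 bp), Cd180 (8095 bp), Pik3ap1 (5947 bp) and Dok3 (5644 bp), also named after their values were seen. At Vpreb2, a second VpreB gene, the height was 283, with PHF6 at height 30. The starts of Pirb and Siglecg, both genes of inhibitory surface receptors, had none of the 3 antibodies, but a placement along whole chromosomes put an H3K27ac summit of 120 at Siglecg. By that placement, which was added after seeing the data, 29 of 32 starts in the list had H3K27ac and 23 had PHF6. The 3 genes nearest to the median member in their ranks for tallest H3K27ac summit, tallest PHF6 summit and H3K27ac bases per kb were Grb2, Vav2 and Bcl10, at distances of 19.59, 24.64 and 25.39 percentile points over these 3 ranks.

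The counterparts of these genes in the T-cell receptor were taken as a second list of 14, of which 9 were placed with a start. H3K27ac lay at 2 of the 9 starts, against 66.2% of all genes: at Cd5, with height 118, and at Lck, the Src-family kinase of T cells, where a 3607 bp peak reached the start with no summit within 1 kb. PHF6 was at 5 of 9, against 71.5%. They included, as examples picked after their values were seen, Zap70, the T-cell relative of Syk (height 26), and Cd247 (28), neither of which was acetylated there. H3K27me3 was at 1 of 9, Lcp2, the T-cell relative of Blnk, and was not there in the placement along whole chromosomes, which also brought the acetylated starts to 3 of 10. None of the 9 starts had an H3K27ac peak of 5 kb or wider, and 2.44% of all genes did, so none among 9 genes says little. The median tallest H3K27ac summit in the locus was 288.5 over the 8 members that met the criterion, 265.5 over the pathway list, 133 over the T-cell list and 244 over all protein-coding genes.

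**Figure D5:**
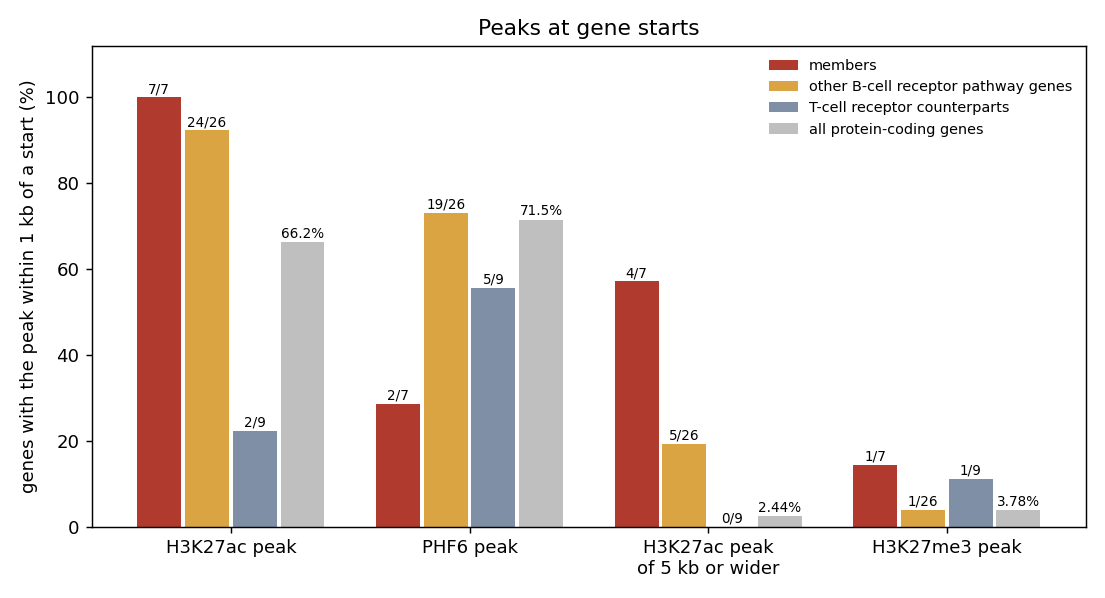
Percent of genes with each kind of peak within 1 kb of an annotated start, for the 7 members (red), 26 other B-cell receptor pathway genes (yellow), 9 T-cell receptor counterparts (blue-grey) and 12635 protein-coding genes (grey), with counts above the bars. H3K27ac is at 7 of 7 members, 24 of 26 pathway genes and 2 of 9 T-cell genes, and PHF6 at 2 of 7, 19 of 26 and 5 of 9. Only the members include a gene that missed the placement criterion, Syk, and without it they stand at 6 of 6 for H3K27ac and 1 of 6 for PHF6.

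The label of pre-B leukemia was checked against marker genes. Of 5 pre-B markers with a start, Pax5 (height 313, width 14108 bp) and Ebf1 (297, 6757 bp) were acetylated and Rag1, Rag2 and Dntt had none of the 3 antibodies at the start. None of 4 T-cell and none of 4 myeloid marker starts were acetylated, and 1 of 4 erythroid ones was (Klf1). Over all genes 66.2% of starts were acetylated, so the pre-B count of 2 of 5 was below that share. PHF6 lay at 2 of 5 pre-B, 2 of 4 T-cell, 2 of 4 myeloid and 3 of 4 erythroid starts (71.5% of all genes). With so few genes, these counts do not settle the cell type. At either end of the gene body, 2 of 5 T-cell markers had H3K27ac (65.8% of all genes). They were Cd4, which has no start in the table, at height 105 with PHF6 at 31, and Cd3d at 125. H3K27me3 was at 2 of the 4 myeloid starts, Elane and Lyz2, and at 1 of the 4 erythroid starts, Hba-a1, with height 77 (3.78% of all genes).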

How the data were processed

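Peak lists of 3 libraries (PHF6, H3K27ac and H3K27me3, 1 each) were used. Per the submitters' processing notes, Bowtie2, SAMtools and MACS 1.4.0 were used with mm9. The list names give a threshold of 1e-6. Those of PHF6 and H3K27ac, unlike that of H3K27me3, also carry a mark for calling with no local background, so the lists are not comparable with each other. The authors deposited a score for each peak and a signal (the pileup height) for each summit. The read depth is unknown, and heights were compared only within a list.

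Gene positions came from RefSeq on GRCm38.p6. Each gene was moved to mm9 by the offset at which most H3K27ac summits of height 200 or more within 2 Mb fell within 0.5 kb of an annotated start. Offsets up to 5 Mb were searched. A gene was kept with 5 or more matches and 1.5 times those at any offset over 2 kb away. This kept 68.36% of protein-coding genes, and the matches had SDs of 222.8 to 323.3 bp at the members. Only matches within 0.5 kb entered these SDs, which grew with the match distance (Cd79a 174 bp at 0.3 kb and 438 bp at 1 kb). They do not measure the precision of distances to genes, which is not known. Syk missed the criterion (10 matches against 7) and was kept because the members were given. On simulated lists with known offsets, 98.8% of 16267 placed genes came within 0.5 kb. Those lists had constant offsets over long stretches and drew most tall summits from the same annotated starts. The simulation therefore gives no error rate for the real lists.

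The members, the gene lists and the comparisons were chosen with earlier results of these data known. The 5 kb width, the CpG classes and the shares of PHF6 among acetylated starts were chosen after seeing the data. Genes were named by a rule: all members, the 5 tallest H3K27ac starts of each list, T-cell genes with either histone mark, pathway genes without any antibody, the 3 genes most like the members, and genes starting in a member locus. Cell type markers came from their own list, and other genes were named after their values were seen. Overlap meant at least 1 bp. Intervals are exact Clopper-Pearson at 95%. Tables were handled with pandas 2.3.3 and numpy 2.4.6 under Python 3.11.15, intervals came from scipy 1.17.1, and figures from matplotlib 3.10.9. The alternatives were other flanks, distances, scores, overlaps, backgrounds and placements.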

Additional observations from a re-analysis of the deposited data

How the results depend on the processing

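No paired analysis was possible because of the single library per antibody. Of 170 values under alternatives, 126 were labelled unchanged and 44 moved, by margins that differed between kinds of value. Of the 126, 60 were gene offsets within 1 SD, where Vpreb1 and Igll1 gave identical values. The label also took in sizeable differences. PHF6 peaks in the loci went from 55 to 38 without Blk and Syk. The median PHF6 to H3K27ac summit distance was 1431 bp, and 391 bp for overlapping peaks only. The count of 126 is therefore not a measure of stability. With a flank of 50 kb the loci held 118 PHF6, 75 H3K27ac and 10 H3K27me3 peaks, with H3K27me3 at 5 members. With a score of at least 100 they held 35 PHF6 peaks and 1 H3K27me3 peak (at 1 member). At that score PHF6 was at 1 member start and H3K27me3 at 0, with 63.8% and 62.4% of all genes for PHF6 and H3K27ac. Within 0.5 kb of the start, H3K27me3 was at 0 members and at 0 T-cell genes, and PHF6 and H3K27ac were at 70% and 65.3% of all genes. Within 2 kb, PHF6 was at 4 of the 7 members, against 73.3% of all genes (H3K27ac 67.4%), and H3K27me3 at 2 pathway genes. With all genes of the table as background the shares were 59.9% and 52.9%. Placement by tall PHF6 summits gave values for 4 members with a start, of which 4 had H3K27ac, 1 PHF6 and 0 H3K27me3, with 75.1% and 69.2% of all genes. Placement along whole chromosomes, which moved 97.6% of genes by under 1 kb, gave 64.6% and 59%, left the members' counts as they were and gave H3K27me3 at 2 pathway and 0 T-cell genes. Without Syk, 1 member had PHF6 at the start, and with Syk placed from 5 Mb to either side 1 had PHF6 and 6 had H3K27ac. At either end of the gene body, which takes in all 9 members, PHF6 was at 7 (73.6% of genes) and H3K27me3 at 3, so the low PHF6 count holds for annotated starts and not for gene ends.

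The median percent of genes with a lower tallest H3K27ac summit was 81.1 with 10 kb flanks and 68.4 with 50 kb, where that of PHF6 was 45.3. Counting summits within 2 kb of the start instead gave 50.5 for H3K27ac and 0 for PHF6, and 2 members with an H3K27ac summit of 200 or more. The tall summits of the loci are thus mostly not at the members' starts. The share of H3K27ac peaks with PHF6 was 100% at heights of 200 or more. Of 61 offsets run, 60 were within 1 SD, a margin that itself depends on the match distance. The exception was Syk with 5 Mb to either side, at -101515 bp, while placement along the whole chromosome gave -95525 bp, and 11 settings gave no value (Vpreb3, Blk, Syk and Cd22). In 300 bases CAGCTG was in 2 promoters. The cause of these changes was not tested.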
